A study of Mus musculus with 2 samples.

Results

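The genes described here encode the surface proteins named as CD antigens, measured by RNA sequencing in splenic regulatory T (Treg) cells of healthy mice and of mice with acute myeloid leukemia. Members were all genes whose symbol begins with Cd and a digit. Cd74, Cd163, Cd5l, Cd2ap, Cd2bp2, Cd3eap and 1 pseudogene were left out by the rule. This gave 89 members among 23248 genes listed in either library. Of these, 88 encode proteins and 1, Cd55os, is an antisense long non-coding RNA. All mice, controls included, were of the Foxp3tm3(DTR/GFP)Ayr/J strain on a B6.129(Cg) background and 6 to 8 weeks old; from this allele Foxp3-expressing cells make the diphtheria toxin receptor and a green fluorescent protein (GFP). Healthy mice had been injected with phosphate-buffered saline. Leukemia mice had received 800000 leukemia cells without irradiation, had a survival time of 30 to 40 days, and gave cells at day 18. The sort took CD4+FOXP3-GFP+ cells of the spleen. Each group was 1 library, so no difference below has a replicate check or a p-value. Pooling of mice within a library and the name of the leukemia cells: not given in the sources used here.

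CD numbers (cluster of differentiation) are given to leukocyte surface molecules that are recognized by groups of antibodies, so the series joins unrelated protein families. It holds the signalling chains of the T and B cell antigen receptors, costimulatory and inhibitory receptors with their ligands, tetraspanins that organize the membrane, complement regulators, and lectin-like and immunoglobulin-like receptors of myeloid cells. Many of these proteins serve as lineage markers in flow cytometry. A pure Treg population carries CD3 and CD4, and lacks CD34 of progenitor cells and most CD300 proteins of myeloid cells.

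Of the 8 members that were at least 2-fold higher in the leukemia library (below), 5 had an entry among RefSeq promoters of assembly GRCm38.p6. The assembly serves for these windows alone, since that of the deposited tables was not stated. The 250 bases before the start of these 5 genes are printed to show what sequence they share, beside those of Cd3d and Cd3g, a pair of T cell receptor chain genes that point away from each other with 1354 bases between their starts. Capitals mark matches, on either strand, to 4 short motifs, of which none contains another. The first is GAGGAA, a core bound by the ETS factor PU.1 of myeloid and B cells. The RUNX factors of blood cells bind TGTGGT, and C/EBP factors of granulocytes bind forms of TTGCNNAA. The letters of the GATA factors of erythroid and progenitor cells were GATAAG. The windows were chr1:194938571-194938820, plus strand, for Cd34, chr11:114934372-114934621, minus strand, for Cd300lb, chr13:102693297-102693546, plus strand, for Cd180, chr10:128909095-128909344, plus strand, for Cd63, and chr1:171558943-171559192, plus strand, for Cd244a. Those of Cd3d and Cd3g were chr9:44981536-44981785, plus strand, and chr9:44980432-44980681, minus strand.
Cd34: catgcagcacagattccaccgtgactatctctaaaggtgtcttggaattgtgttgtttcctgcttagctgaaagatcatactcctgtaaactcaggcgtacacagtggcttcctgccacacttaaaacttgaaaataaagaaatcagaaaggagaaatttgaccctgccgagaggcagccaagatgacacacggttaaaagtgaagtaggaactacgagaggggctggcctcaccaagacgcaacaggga
Cd300lb: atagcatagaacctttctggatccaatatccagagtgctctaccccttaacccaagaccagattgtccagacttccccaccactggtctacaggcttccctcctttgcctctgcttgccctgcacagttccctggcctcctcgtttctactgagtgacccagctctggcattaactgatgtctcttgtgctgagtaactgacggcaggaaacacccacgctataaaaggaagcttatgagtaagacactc
Cd180: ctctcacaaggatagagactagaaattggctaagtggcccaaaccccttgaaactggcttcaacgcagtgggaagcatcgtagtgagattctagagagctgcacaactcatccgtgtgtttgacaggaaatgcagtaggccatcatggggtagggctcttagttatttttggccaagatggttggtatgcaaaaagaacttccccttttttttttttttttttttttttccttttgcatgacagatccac
Cd63: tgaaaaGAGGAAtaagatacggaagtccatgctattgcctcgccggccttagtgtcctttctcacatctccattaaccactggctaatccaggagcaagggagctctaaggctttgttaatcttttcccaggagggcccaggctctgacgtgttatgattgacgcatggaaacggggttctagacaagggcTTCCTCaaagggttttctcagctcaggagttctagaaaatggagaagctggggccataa
Cd244a: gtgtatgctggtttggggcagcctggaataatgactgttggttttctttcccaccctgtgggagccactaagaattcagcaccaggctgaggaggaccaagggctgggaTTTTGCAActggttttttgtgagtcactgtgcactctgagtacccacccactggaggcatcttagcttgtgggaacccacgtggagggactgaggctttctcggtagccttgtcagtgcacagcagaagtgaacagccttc
Cd3d: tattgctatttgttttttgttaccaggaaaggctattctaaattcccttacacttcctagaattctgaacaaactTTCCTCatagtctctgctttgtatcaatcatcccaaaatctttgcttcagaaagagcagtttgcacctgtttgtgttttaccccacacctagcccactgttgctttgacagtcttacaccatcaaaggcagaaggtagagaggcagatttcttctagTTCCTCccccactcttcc
Cd3g: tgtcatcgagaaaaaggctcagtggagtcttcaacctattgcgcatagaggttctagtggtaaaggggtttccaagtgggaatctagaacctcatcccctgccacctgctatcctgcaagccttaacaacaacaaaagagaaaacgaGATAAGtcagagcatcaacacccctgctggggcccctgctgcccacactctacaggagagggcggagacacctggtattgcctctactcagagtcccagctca
The windows of Cd34, Cd300lb and Cd180 held none of these letters. That of Cd63 held the PU.1 letters at 2 places, beginning 244 and 59 bases before the start, and that of Cd244a held the C/EBP letters, beginning 141 bases before it. The Cd3d window also held the PU.1 letters at 2 places, and the Cd3g window the GATA letters at 1 place. Among 21263 promoter windows of protein-coding genes, 22.2% held the PU.1 letters, 12.4% those of RUNX, 9.09% those of C/EBP and 6.25% those of GATA. The 5 windows thus held no match in common, and a match is a description of letters, not a binding site.

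The healthy library held 8929601 and the leukemia library 8897162 estimated reads. FPKM (fragments per kilobase of transcript and per 1000000 fragments) is the unit of all levels below, and levels are given as healthy, then leukemia. Ratios are log2((FPKM leukemia + 1) / (FPKM healthy + 1)), which understates how far scarce transcripts differ. Genes that reached 1 FPKM in at least 1 library were counted as higher from a ratio of 1 upwards and as lower from -1 downwards. Read ratios (leukemia over healthy, each over its library total) carry an exact 95% Clopper-Pearson interval, which covers counting error only and compares the libraries, not the conditions. The sorted population carried its defining transcripts in both libraries, with Foxp3 at 104 and 62.7 FPKM and Cd4 at 267 and 183.5 FPKM.

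The CD antigen genes had a median slightly below 0 on the deposited scale, which turned above 0 when centred on T cell genes, while 8 were at least 2-fold higher. Of the 89 members, 70 reached 1 FPKM, of which 65 did so in the healthy library and 5 (Cd34, Cd93, Cd300lb, Cd177 and Cd200r3) only in leukemia. The 8 higher members were Cd34, Cd24a, Cd93, Cd300lb, Cd180, Cd63, Cd244a and Cd99, or 11.4% of 70, beside 6.55% of all 13717 genes at 1 FPKM or more. Among members at 1 FPKM or more in the healthy library, 5 of 65 were higher, beside 4.14% of all such genes, and 0 were lower, beside 2.07%. No member of the 70 was 2-fold lower, beside 1.95% of all genes. Cd69, Cd86 and Cd55, at ratios of -0.99, -0.97 and -0.91, lay just outside that limit, and all 3 were past it once FPKM was rescaled to a common sum. The split of 8 higher and 0 lower members became 8 and 3 there, 8 and 1 with TMM or median-ratio scaling, and 8 and 2 when genes of other cells were left out of the sum. The lower share of all genes was 3.02% with the common sum, 1.71% with TMM and 1.98% with median-ratio scaling. It was 2.27% without the genes of other cells. Cd99, at 1.07, was the member just inside the upper limit, and Cd79b, at 0.84, the one just outside. The median ratio was -0.26 over the 70 members and -0.15 over all 89, against 0.02 over all genes. Of the 70, 45 (64.3%) lay below 0, against 46.9% of all genes. The read-ratio interval lay below 1 for 37 members (52.9%, beside 23.5% of all genes) and above 1 for 13 (18.6%, beside 29.0%). Intervals are narrower for genes with many reads, so these shares also follow the level of the genes. When ratios were centred on 23 T cell genes that are no members (median -0.43), the median of the members turned to 0.17, against 0.46 for all genes. Centring adds the same 0.43 to every ratio, so each centred group median given below is to be read beside that 0.46. With that centring 12 members were higher and 0 lower, and the split over all genes went from 898 higher and 267 lower to 1947 and 103.

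Of summed FPKM, the members made up 1.30% in the healthy library and 1.08% in leukemia. Cd52, a short glycoprotein of lymphocytes, was the most abundant in both, at 1732 and 1695 FPKM, and alone held 24.8% and 27.6% of the members' sum. It was followed in both libraries by Cd2, Cd3g and Cd3d. The order changed further down: Cd99 moved from place 15 to 5, Cd24a from 49 to 16, Cd34 from 70 to 23 and Cd93 from 71 to 35 of 89. The 8 higher members together stood at 126.9 and 468.9 FPKM, and the other 81 at 6846 and 5684 FPKM. In the plot of levels the 8 stand above the band of 2-fold, and the genes of the T cell receptor complex lie in a row under the diagonal.

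**Figure D1:**
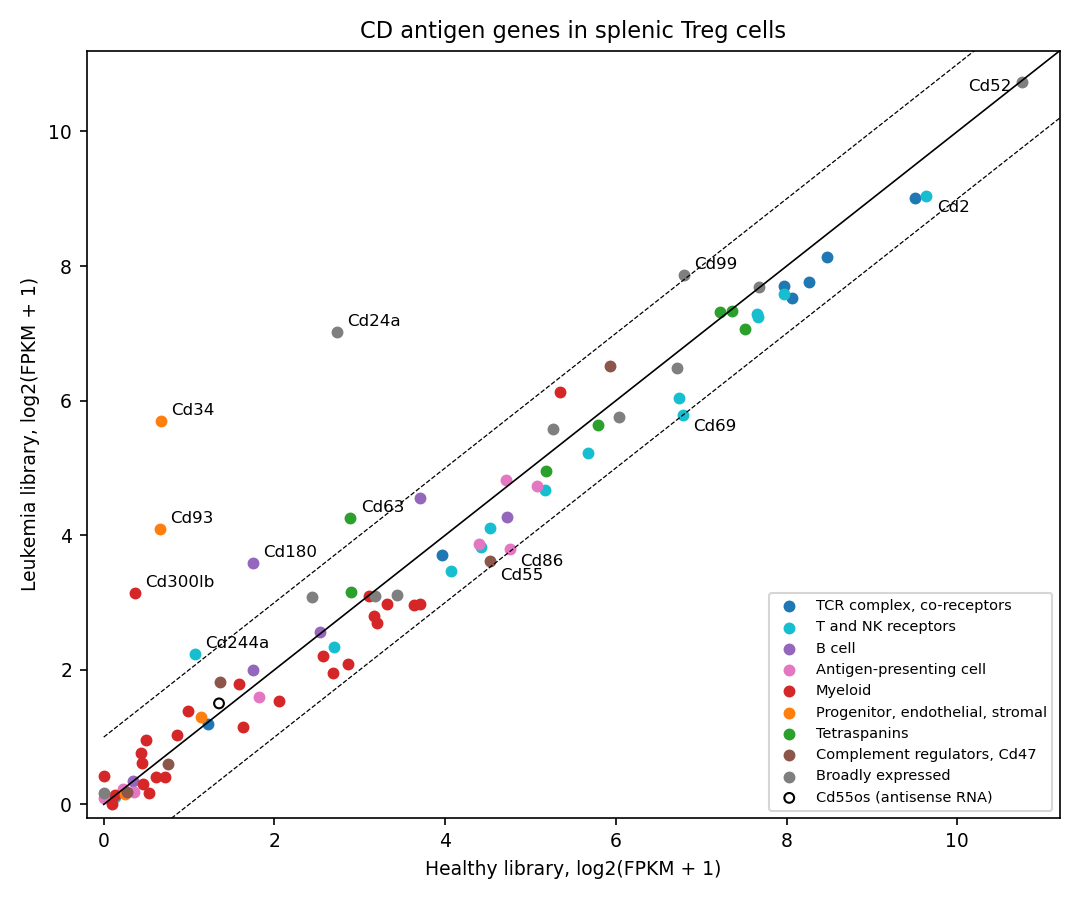
Each point is 1 of 89 CD antigen genes, with log2(FPKM + 1) in the healthy library on the x axis and in the leukemia library on the y axis, coloured by usual cell lineage. The solid line marks equal values and the dashed lines 2-fold; Cd34, Cd24a, Cd93 and Cd300lb lie farthest above, at ratios of 5.02, 4.29, 3.43 and 2.78, and no point lies below the lower dashed line on this scale.

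Of 4 surface proteins of progenitor, endothelial and stromal cells, 3 reached 1 FPKM and 2, Cd34 and Cd93, were higher. Cd34 (NCBI Gene 12490), a sialomucin of hematopoietic progenitor and endothelial cells, was at 0.59 and 50.6 FPKM. This rested on 13 and 1152 reads, a read ratio of 88.9 (51.8 to 167.5). Cd93 (17064), a C-type lectin-like protein of progenitor, myeloid and endothelial cells, had 0.58 and 16.0 FPKM. It rested on 35.1 and 961 reads, for a read ratio of 27.6 (19.7 to 39.8). Both were thus under 1 FPKM in the healthy library and among the upper 35 of 89 members in leukemia. Cd248, a protein of stromal cells, differed little, at 1.21 and 1.47 FPKM (ratio 0.16, read ratio 1.21 with an interval of 0.719 to 2.05), and Cd109, a GPI-anchored protein, had 10 and 6 reads. Cd46, which encodes a complement regulator and is the protein-coding gene next to Cd34 in the RefSeq order, was at 1.57 and 2.53 FPKM. In bulk RNA, fewer cells of a type and less RNA per cell cannot be told apart, and the same holds for more.

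Markers of granulocyte progenitors moved with these genes. Of 17 listed genes 14 were higher and 0 lower, beside 6.55% and 1.95% of all genes at 1 FPKM or more. Most of the 17 were under 1 FPKM in the healthy library. Those passed the filter only through leukemia and could not be called lower. The 2 below 0 were Gfi1, at 20.45 and 18.89 FPKM, and Mgst1, at 3.88 and 2.55 FPKM. The summed level of the 17 was 49.4 and 1329 FPKM. Ms4a3, Cebpe and Fcnb were at 0 in the healthy library, where Mpo, for the granule enzyme myeloperoxidase, was at 0.83 FPKM, against 357 FPKM in leukemia. Monocyte markers had 6 of 10 genes higher and summed to 252.9 and 901.8 FPKM, of which Ly6c2 alone made 23.7 and 436.7 FPKM. The 2 below 0 were Csf1r, at 82.05 and 52.35 FPKM, and Fcgr1, at 5.08 and 2.2 FPKM. Ccr2, at 13.3 and 13.6 FPKM, and Lyz2, at 51.7 and 61.5 FPKM, were also under 2-fold. Late neutrophil genes summed to 3.31 and 7.21 FPKM over 8 genes, of which Mmp9 alone made 2.27 and 2.28 FPKM. Ltf and Mmp8 were at 0 in the healthy library and had 1 and 23 reads in leukemia. S100a8 had 1 and 6 reads and S100a9 had 1 and 3, so these values lie near the floor. The 10 endothelial and stromal markers summed to 72.7 and 76.7 FPKM, with 1 higher. Most of this was Pecam1, also listed as broadly expressed, at 58.2 and 58.5 FPKM, and the other 9 summed to 14.5 and 18.2 FPKM. The 6 plasma cell markers summed to 75.7 and 103.4 FPKM, with 0 higher. The 12 Treg markers had 0 higher and 0 lower and a median ratio of -0.54. The lists overlap: Flt3, counted as higher here, is also a dendritic cell marker, and Gata2 a basophil and mast cell marker. The part of other cells in the levels of Cd34, Cd93, Cd24a, Cd300lb, Cd180, Cd63, Cd244a and Cd99 was not tested.

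**Figure D2:**
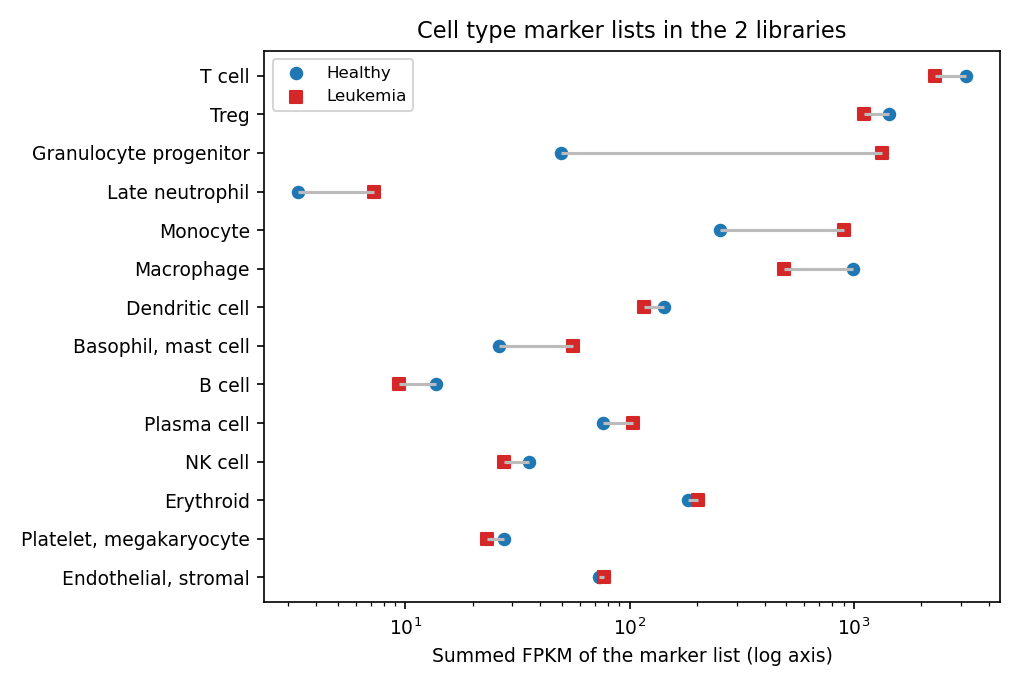
Summed FPKM (x axis, log scale) of 14 cell type marker lists in the healthy (circles) and the leukemia library (squares), from which genes of the 89 members were left out. Granulocyte progenitor markers stand at 49.4 and 1329 FPKM and monocyte markers at 252.9 and 901.8 FPKM, of which Ly6c2 alone made 23.7 and 436.7 FPKM. Macrophage markers stand at 992.3 and 489.3 FPKM and B cell markers at 13.7 and 9.35 FPKM.

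Among the 11 broadly expressed surface proteins, 2 were higher and 0 lower of 10 that reached 1 FPKM. Cd24a (12484), a small GPI-anchored mucin-like protein of immature lymphoid, erythroid and myeloid cells, was at 5.65 and 129 FPKM, on 92 and 2097 reads, a read ratio of 22.9 (18.6 to 28.5). Cd99 (673094), a protein of leukocyte adhesion and migration, was already abundant in the healthy library, at 110 and 232.7 FPKM. Its read ratio of 2.12 had an interval of 1.96 to 2.29, so that counting error alone allows a value under 2. Erythroid markers, which belong to a further lineage that carries Cd24a, summed to 181.4 and 201.9 FPKM over 12 genes, with 2 higher and none at 0. Hba-a1 alone stood at 79.4 and 67.4 FPKM, and the other 11 genes summed to 102.0 and 134.5 FPKM. The 2 higher were Klf1, at 0.15 and 1.76 FPKM, and Car1, at 16.4 and 36.7 FPKM. Of the 9 at 1 FPKM or more, 3 lay below 0. The other broadly expressed members were closer to even. Cd44, a hyaluronan receptor of activated T cells, was at 37.4 and 47.0 FPKM (read ratio 1.25, 1.17 to 1.34) and Cd320, the transcobalamin receptor, at 4.44 and 7.47 FPKM (1.77, 1.26 to 2.51). Cd52 had a read ratio of 0.98 (0.949 to 1.01) and Cd48, at 204.2 and 205.3 FPKM, one of 1.01 (0.953 to 1.08), so their differences were within counting error. Cd164, a sialomucin, stood at 103.8 and 88.3 FPKM and Cd38, an enzyme that consumes NAD, at 9.82 and 7.65 FPKM. Cd84, a SLAM family receptor, was at 64.5 and 52.9 FPKM, Cd99l2, a relative of Cd99, at 8.07 and 7.53 FPKM, and Cd164l2 was listed in leukemia alone, on 1 read.

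The T cell receptor complex and its co-receptors were lower together on the deposited scale, with a median ratio of -0.34 that turned to 0.09 when centred on T cell genes. All 7 members lay below 0 and none reached 2-fold. Cd3g was at 722.5 and 515.5 FPKM, Cd3d at 354.1 and 280.1 FPKM and Cd3e at 250.6 and 208.2 FPKM. These encode the gamma, delta and epsilon chains, which carry the receptor to the surface and signal. Cd247, the zeta chain with most of the signalling motifs, was at 307.2 and 215.7 FPKM. The 4 chains did not move by 1 factor beyond counting error: the read ratio was 0.704 (0.673 to 0.736) for Cd247 and 0.714 (0.688 to 0.742) for Cd3g, but 0.832 (0.790 to 0.876) for Cd3e. Cd4, the co-receptor of the sort, had a read ratio of 0.687 (0.663 to 0.713). Cd8b1 and Cd8a, the co-receptor chains of cytotoxic T cells, were at 14.6 and 12.1 FPKM and at 1.33 and 1.28 FPKM, and their intervals of 0.660 to 1.03 and 0.591 to 1.53 held 1.

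Among 14 costimulatory, adhesion and inhibitory receptors of T and NK cells, 13 reached 1 FPKM, of which 12 lay below 0, with a median of -0.45, or -0.02 when centred on T cell genes. Cd2, an adhesion receptor, was at 795.5 and 528.3 FPKM, while its ligand gene Cd48 was even (above). Cd5 and Cd6, scavenger receptor-type regulators of T cell receptor signals that are neighbours in the genome, stood at 249.6 and 191.8 FPKM and at 200.2 and 154.6 FPKM. Their read ratios of 0.769 (0.736 to 0.804) and 0.777 (0.745 to 0.810) had overlapping intervals. Cd27, a TNF receptor family member that supports T cell survival, was at 202.0 and 151.1 FPKM.

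Cd69, an early activation protein that holds cells in tissue, had the lowest ratio of all 70 members, at 108.9 and 54.4 FPKM and a read ratio of 0.498 (0.457 to 0.543). Its ratio of -0.99 passed the 2-fold limit with a pseudocount of 0.1 FPKM and with 4 other scalings, but was -0.56 when centred on T cell genes. Cd96 and Cd226, an inhibitory and an activating receptor that compete for the same nectin-like ligand, were at 106.0 and 65.0 FPKM and at 20.5 and 13.2 FPKM. Their read ratios of 0.614 (0.572 to 0.658) and 0.665 (0.587 to 0.753) had overlapping intervals. Cd28, the main costimulatory receptor, was at 50.2 and 36.5 FPKM, Cd7 at 34.9 and 24.6 FPKM, and Cd40lg, the ligand that T cells offer to CD40, at 22 and 16.2 FPKM. Cd200, a ligand that restrains myeloid cells, was at 15.8 and 10.1 FPKM and Cd160, an NK and T cell receptor, at 5.47 and 4.05 FPKM, while Cd163l1 had 3 and 2 reads. The read-ratio interval lay below 1 for 17 of the 21 members of both T cell groups, with read ratios of those 17 from 0.498 to 0.832.

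Cd244a (18106), a SLAM family receptor of NK cells, myeloid cells and some T cells, was the 1 member of these groups above 0, at 1.09 and 3.71 FPKM. It had 37 and 122 reads, a read ratio of 3.31 (2.27 to 4.92). Its SLAM family relatives among the members lie close by in the genome and differed less, with Cd48 (its ligand) at a ratio of 0.01 and Cd84 at -0.28. NK cell markers summed to 35.6 and 27.5 FPKM over 8 genes, with none at 0 and 0 higher.

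B cell surface proteins went separate ways. Cd180 (17079), a Toll-like receptor relative of B cells and myeloid cells, had 2.35 and 11.0 FPKM, from 49 and 228 reads, for a read ratio of 4.67 (3.42 to 6.5). Cd79b, a signalling chain of the B cell receptor, was at 12.0 and 22.4 FPKM, a read ratio of 1.86 (1.5 to 2.32). Its partner chain Cd79a was at 2.37 and 2.99 FPKM, with an interval of 0.742 to 2.14. Cd72, an inhibitory C-type lectin, had 25.5 and 18.3 FPKM and a read ratio of 0.698 (0.585 to 0.832), and Cd22, a sialic acid-binding inhibitory receptor, 4.79 and 4.89 FPKM. The median of the 5 members at 1 FPKM or more was 0.24. The B cell markers outside the members had 3 of 10 genes at 1 FPKM, with 0 higher and 0 lower, and summed to 13.7 and 9.35 FPKM, with Ms4a1 (CD20) at 0.27 and 0.11 FPKM. The 3 were Bank1 at 6.93 and 3.32 FPKM, Blnk at 3.14 and 1.98 FPKM and Fcer2a at 1.34 and 1.57 FPKM. The part of B cells in the levels of Cd79b, Cd72 and Cd22 was not tested.

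**Figure D3:**
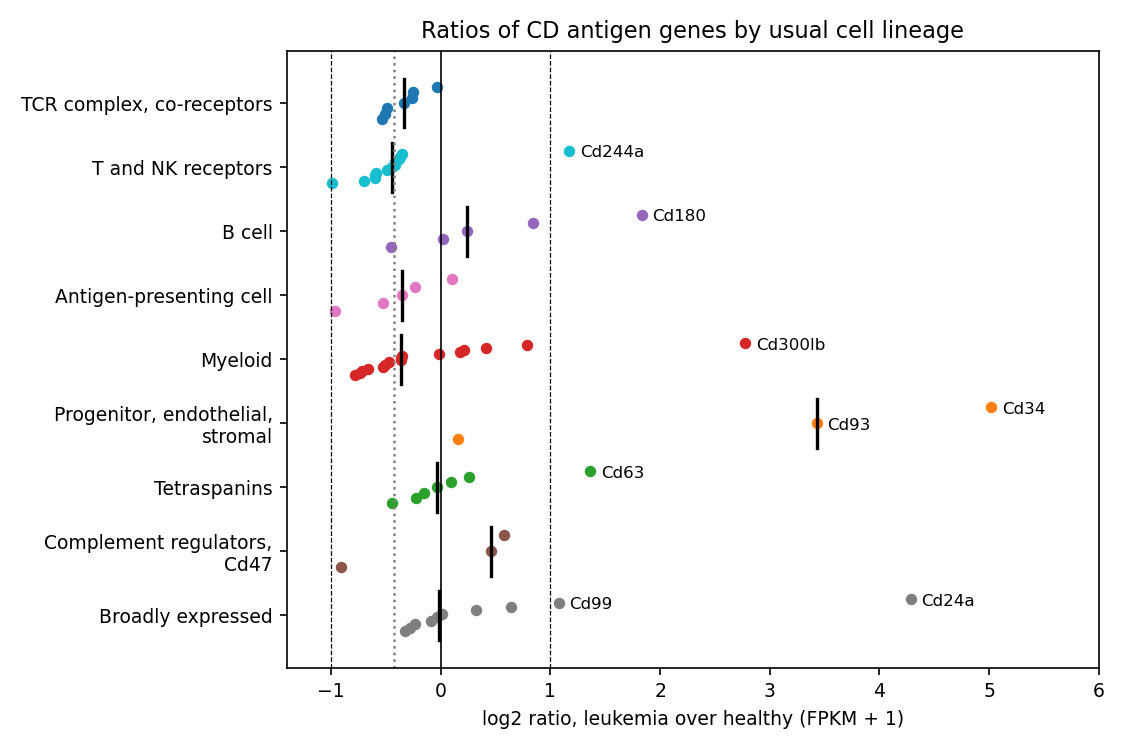
Log2 ratios (x axis, leukemia over healthy) of 69 CD antigen genes at 1 FPKM or more, in rows by usual cell lineage, with Cd55os left out. Black bars are the group medians, dashed lines 2-fold and the dotted line the median of the T cell genes that are no members (-0.43); the T cell groups cluster near the dotted line, at medians of -0.34 and -0.45, and 8 named genes lie right of 1.

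Of 26 myeloid surface proteins 16 reached 1 FPKM, of which 11 lay below 0 and 1 was higher, with a median of -0.37 that turned to 0.07 when centred on T cell genes. The 10 others, among them Cd209a, Cd209b, Cd209d, Cd209f and Cd209g, had at most 20 reads in either library. Of these, Cd209f was listed in the healthy library alone, on 1 read. Cd68, a lysosomal glycoprotein of macrophages and monocytes, was at 39.6 and 69.0 FPKM, a read ratio of 1.74 (1.55 to 1.96). Cd302, a C-type lectin, was at 12.0 and 6.89 FPKM (0.575, 0.433 to 0.758), and Cd209c, of the DC-SIGN family, at 6.28 and 3.23 FPKM (0.513, 0.350 to 0.743). Cd14, the lipopolysaccharide co-receptor of monocytes, had 4.94 and 3.61 FPKM with an interval of 0.506 to 1.05, and Cd101, an inhibitory immunoglobulin-like protein, 7.95 and 5.95 FPKM. Cd33, a myeloid siglec, had 7.79 and 15.9 reads and stayed under 1 FPKM. The neutrophil protein gene Cd177 had 24 and 40 reads, with an interval of 0.984 to 2.90, and Cd36, a scavenger receptor, 9 and 13 reads. Macrophage markers outside the members summed to 992.3 and 489.3 FPKM over 15 genes, with 5 lower, 15 below 0 and none at 0. The part of macrophages in the lower levels of Cd209c, Cd300e, Cd302, Cd200r1 and Cd86 was not tested.

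Within the CD300 family, immunoglobulin-like receptors of myeloid cells whose genes, apart from Cd300lg, lie in 1 cluster, 1 gene stood apart. Cd300lb (217304), an activating receptor, was at 0.29 and 7.84 FPKM, on 7 and 195 reads, a read ratio of 28.0 (13.3 to 70.5). Cd300a, an inhibitory receptor next to it, stood at 8.99 and 6.84 FPKM, a read ratio of 0.841 (0.716 to 0.987). Cd300c, the neighbour on the other side, was listed in leukemia alone, on 2 reads. Cd300c2 was at 8.22 and 5.48 FPKM, Cd300e at 5.41 and 2.86 FPKM, Cd300ld3 at 3.15 and 1.89 FPKM and Cd300ld at 2.10 and 1.23 FPKM. The read-ratio intervals of these 4 all lay below 1. Cd300lf had 33.2 and 41.6 reads, and Cd300lg 8 and 20, with an interval of 1.06 to 6.59 but under 1 FPKM in both. The 9 CD300 genes together summed to 30.6 and 29.9 FPKM, but without Cd300lb the other 8 summed to 30.3 and 22.1 FPKM. Several CD300 genes are similar in sequence, and reads shared among them are divided by estimate.

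The receptors for CD200 did not move together either. Cd200r1, the inhibitory receptor, was at 11.4 and 6.82 FPKM (read ratio 0.598, 0.471 to 0.757), and Cd200r4, an activating relative, at 7.63 and 7.53 FPKM (0.990, 0.780 to 1.26). Cd200r3, which is known from basophils and mast cells, had 17 and 21 reads and Cd200r2 had 8.24 and 5.15. Basophil and mast cell markers summed to 26.2 and 55.7 FPKM over 8 genes, with 4 higher, 1 lower and none at 0. Ccr3 alone stood at 19.4 and 6.26 FPKM, and the other 7 genes at 6.8 and 49.4 FPKM.

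**Figure D4:**
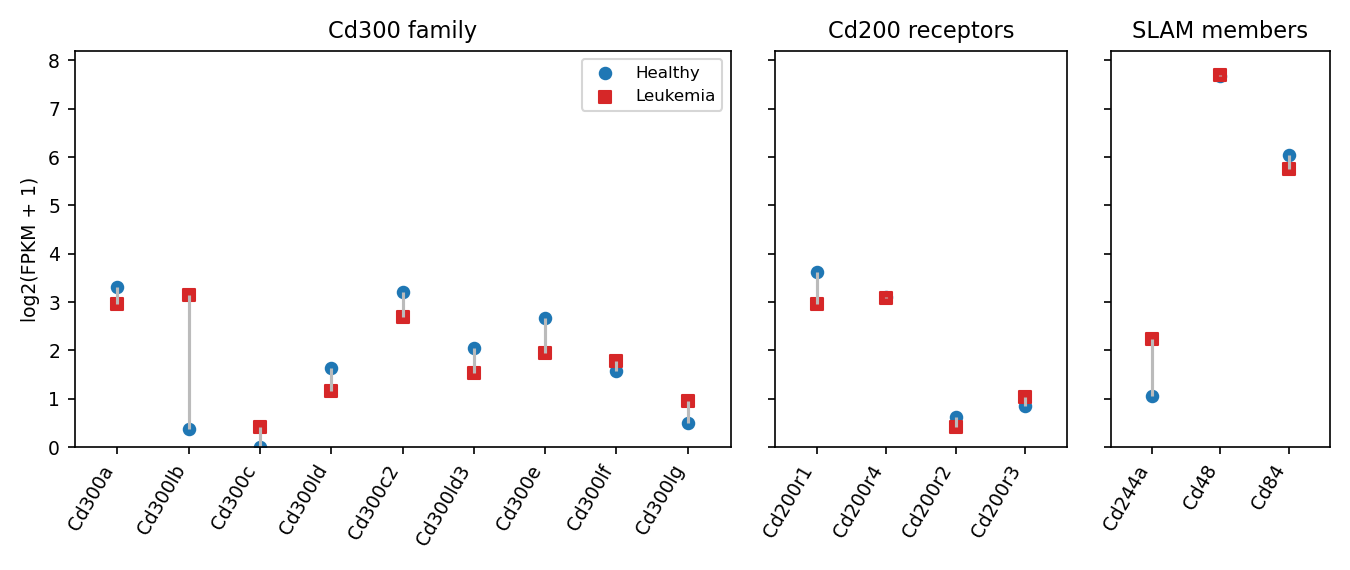
Levels as log2(FPKM + 1) (y axis) of 9 CD300 genes, 4 CD200 receptor genes and 3 SLAM family genes in the healthy (circles) and the leukemia library (squares), joined by grey lines. Cd300lb and Cd244a have the longest upward lines in their panels, from 0.29 to 7.84 FPKM and from 1.09 to 3.71 FPKM, beside neighbours that differ less.

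The 8 ligands and presenting molecules of antigen-presenting cells had a median of -0.35 over 5 members, or 0.08 when centred on T cell genes, with 0 higher or lower. Cd86, a ligand for CD28 and CTLA-4, was at 26.0 and 12.8 FPKM, a read ratio of 0.50 (0.432 to 0.577). The second such ligand, Cd80, was at 2.54 and 2.01 FPKM, with an interval of 0.583 to 1.07. Cd274, which encodes the inhibitory ligand PD-L1, was at 20 and 13.6 FPKM (0.675, 0.597 to 0.763) and Cd83, a protein of activated dendritic and lymphoid cells, at 32.8 and 25.5 FPKM (0.779, 0.690 to 0.878). Cd1d1, which presents lipids to NKT cells, differed within counting error, at 25.2 and 27.2 FPKM (1.08, 0.939 to 1.23). Cd40, the receptor for CD40L on antigen-presenting cells, had 4 and 2 reads, Cd276 had 5 and 5, and Cd207, of Langerhans cells, was listed in leukemia alone, on 1 read. Dendritic cell markers summed to 142.1 and 115.4 FPKM over 10 genes, with 3 higher and none at 0. Bst2 alone stood at 133.5 and 79.8 FPKM, and the other 9 genes summed to 8.52 and 35.6 FPKM. That rise lay in the 3 higher genes, Flt3 at 0.31 and 17.8 FPKM, Clec10a at 0.58 and 5.68 FPKM and Wdfy4 at 1.89 and 6.79 FPKM. The rest stayed under 2-fold, with Zbtb46, Siglech and Batf3 below 0 and Itgax, Xcr1 and Clec9a above 0.

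The 7 tetraspanins, which organize other proteins in the membrane, had a median of -0.04, or 0.39 when centred on T cell genes, with 1 higher. Cd63 (12512), a tetraspanin of lysosomes and granules, had 6.40 and 18.1 FPKM, from 52 and 145 reads, for a read ratio of 2.80 (2.03 to 3.92). Cd53 stood at 181.4 and 133.3 FPKM, and its read ratio of 0.736 (0.704 to 0.770) lay in the range of the T cell members. Cd82 and Cd37 were even within counting error, at 163.8 and 159.6 FPKM and at 147.8 and 157.8 FPKM, with intervals of 0.916 to 1.02 and 0.976 to 1.11. Cd81 had 54.2 and 48.7 FPKM, Cd9 35.2 and 30.0 FPKM and Cd151 6.43 and 7.89 FPKM. Platelet and megakaryocyte markers, of cells rich in Cd9 and Cd63, summed to 27.6 and 23.1 FPKM over 10 genes, with 0 higher and none at 0.

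The 3 complement regulators and self markers at 1 FPKM or more had a median of 0.46, or -0.09 over all 5 with no filter. Cd55, decay-accelerating factor, was at 22 and 11.3 FPKM, a read ratio of 0.535 (0.468 to 0.612). Cd47, the signal against uptake by phagocytes, was at 60.1 and 90.2 FPKM, a read ratio of 1.49 (1.39 to 1.6). Cd59a and Cd59b, neighbouring copies that encode an inhibitor of the membrane attack complex, had 10.5 and 8 reads and 1.48 and 1 reads, and reads shared between them are divided by estimate. Cd55os, which is antisense to Cd55, had 44.7 and 39.3 reads at 1.55 and 1.83 FPKM. Its ratio of 0.15 turned to -0.16 on counts without division by length, and without a strand-specific count its reads cannot be told apart from those of Cd55.

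**Figure D5:**
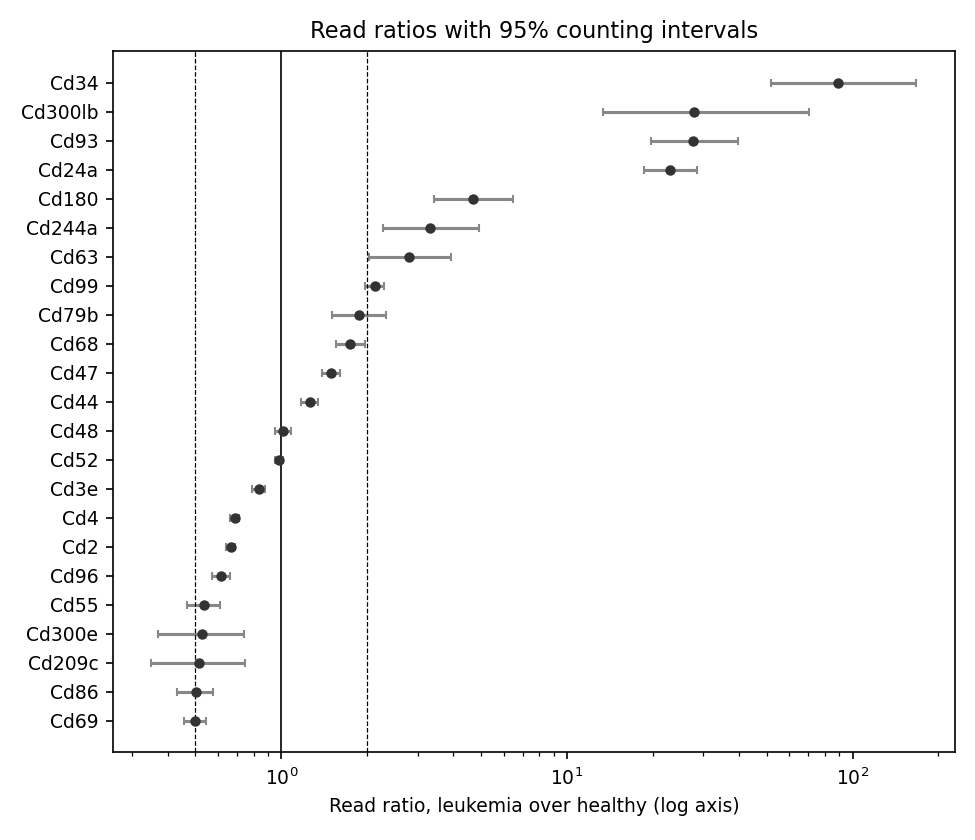
Read ratios (x axis, log scale, leukemia over healthy) of 23 CD antigen genes with exact 95% intervals of counting error. The ratios of Cd34, Cd300lb, Cd93 and Cd24a are 88.9, 28.0, 27.6 and 22.9, the intervals of Cd48 and Cd52 hold 1, and those of Cd69, Cd86, Cd55, Cd209c and Cd300e hold 0.5.

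The deposited mean transcript length allows a look at isoforms, since it weights each transcript by its estimated share. Of 30 members with several listed transcripts and 100 reads or more in both libraries, 2 differed in mean length by 5% or more, beside 8.17% of 6497 such genes. Cd300a went from 4178 to 4606 bases (10.2%) and Cd84 from 2583 to 2436 bases (-5.66%). For Cd84 the read ratio was 0.774 (0.716 to 0.836). Its FPKM values, at 64.5 and 52.9, thus lie closer together than its reads.

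A list of 93 genes, mostly of CD antigens whose genes carry other names, gave a wider view. Of these, 92 matched and 85 reached 1 FPKM. The list also holds genes without a CD number, such as Klrg1 and Clec4e, the latter counted as higher at 0 and 2.31 FPKM. Over the 85 the median ratio was -0.06, against 0.02 over all genes. The upper limit was passed by 9 of the 85 and the lower by 2, beside 6.55% and 1.95% of all genes at 1 FPKM or more. Part of the listed genes, among them Mrc1, Vcam1, Siglec1, Flt3, Kit and Itgam, also stand in the cell type marker lists above, so the counts are not separate. The 36 genes of T cells and Treg cells had 0 higher and 0 lower, 31 below 0 and a median of -0.27 (at most 0.42, for Pdcd1). Of 23 myeloid and progenitor genes at 1 FPKM or more, 7 were higher and 1 lower. The higher ones included the receptor genes Csf2ra (CD116) at 6.84 and 30.8 FPKM, Csf2rb (CD131) at 2.24 and 11.1 FPKM and Il3ra (CD123) at 15.9 and 39.0 FPKM, and the lower one was Mrc1 (CD206). Among genes listed for B cells 2 of 6 were higher, Fcgr2b (CD32) at 0.78 and 17.2 FPKM and Siglecg at 0.30 and 3.23 FPKM. Ms4a1 and Cr2, also listed for B cells, stayed under 1 FPKM, at 0.27 and 0.11 and at 0.16 and 0.09 FPKM. The part of B cells in the levels of Fcgr2b and Siglecg was not tested. Among 20 broadly expressed genes 0 were higher and 1, Vcam1 (CD106), lower.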

How the data were processed

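The 2 libraries, 1 healthy and 1 leukemia, came from 1 µg of RNA of sorted splenic Treg cells each, read on a BGISEQ-500, per the labels' protocols. Bowtie2 2.2.5 and RSEM stand in the submitters' processing notes. RSEM version, genome build and annotation: not given in the sources used here. The deposited tables hold, per the file headers, an expected count (estimated reads), an FPKM value and a transcript length for each gene. FPKM has 2 decimals, so low values are coarse. Reads of similar genes are divided by estimate.

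Of 23248 Gene IDs, 21713 had a RefSeq symbol (GRCm38.p6) under that ID, 22 more through a transcript accession and 1513 none. A gene missing from a table counted as 0. The pseudocount was 1 FPKM, and intervals used expected counts rounded to whole numbers. The call is a rule of size, not a test: edgeR 4.0.16 (R 4.3.3) served for TMM scaling only. Python 3.11.15, pandas 2.3.3, numpy 2.4.6, scipy 1.17.1 and matplotlib 3.10.9 were used, and the code was tested on simulated data.

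The members, groups and 18 lists were chosen with earlier results of these data known. Named genes were all called members, the 4 most abundant of each group in the healthy library, members listed in 1 library alone and those next to the limits. Genes named beyond that rule were chosen after their values were seen. Alternatives changed the pseudocount, filter, scaling and unit. The values of 1 member are not reported here.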

Additional observations from a re-analysis of the deposited data

How the results depend on the processing

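The 8 higher members remained higher under every alternative run except a filter of 5 FPKM, which kept 7 and dropped Cd244a for its level. Cd99 was at the limit, at 1.00, with FPKM rescaled to 1000000 and with rescaling after leaving out other-cell genes. The run with no filter could not change a call, since a gene under 1 FPKM in both libraries cannot reach 2-fold with a pseudocount of 1 FPKM. Centred on T cell genes, 12 were higher, the added 4 being Cd79b, Cd68, Cd320 and Cd47, beside 14.2% of all genes. The count of lower members, 0 as reported, was 2 with a pseudocount of 0.1 FPKM (Cd69 and Cd86), 3 with FPKM rescaled to 1000000 (TPM; Cd69, Cd86 and Cd55), 1 with division by the median ratio, 1 on CPM with TMM scaling (Cd69 both times) and 2 with rescaling after leaving out other-cell genes (Cd69 and Cd86). The lower share of all genes in these runs was, in the same order, 3.59%, 3.02%, 1.98%, 1.71% and 2.27%. Cd69, Cd86 and Cd55 lay at -0.91 or below to begin with. The median of the members was 0.17 centred on T cell genes, a shift of 0.43 by construction, and stayed between -0.34 and -0.15 under the other alternatives. Over all genes the counts of 898 higher and 267 lower became 1947 and 103 with that centring, 1245 and 493 with the smaller pseudocount, 961 and 414 as TPM and 590 and 135 at 5 FPKM, where fewer genes are tested. Of 362 ratios of named members under the alternatives, 310 moved by no more than 1 arm of their counting interval and 52 by more. The 310 include the runs with no filter, with a filter of 5 FPKM and without Cd55os. Those runs cannot move a gene's own ratio, so the 310 is no measure of stability. No ratio of a called member changed sign, but these began at 1.07 or more and centring raised them. Among the other named members some signs did turn when centred on T cell genes. Cd3d went from -0.34 to 0.09, Cd5 from -0.38 to 0.05 and Cd164 from -0.23 to 0.20, while Cd4 stayed below 0. Leaving out Cd55os, an alternative chosen after seeing the data, gave 8 higher and 0 lower members and a median of -0.27. No paired analysis was possible because each group has 1 library, and no replicate could be left out. A count of 0 allows up to 3 reads, or 0.336 and 0.337 of every 1000000 reads in the healthy and the leukemia library, so members with a few reads, such as Cd207 and Cd40, cannot be compared at this depth.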

Other observations

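Partner chains of receptors stood at unequal levels, compared here as quotients of FPKM within a library. Cd8b1 was 11.0 times Cd8a in the healthy and 9.44 times in the leukemia library, although the proteins form CD8 as a pair. Cd79b was 5.08 times Cd79a in the healthy and 7.48 times in the leukemia library. Cd4 was 18.2 and 15.2 times Cd8b1. Within the CD3 complex, Cd3g was 2.88 and 2.48 times Cd3e. Among pairs that are not partner chains, Cd27 was 4.03 and 4.14 times Cd28, and Cd96 5.18 and 4.92 times Cd226, which differed little between the libraries. Other such pairs differed more. Cd34 was 1.02 and 3.16 times Cd93, Cd24a 9.58 and 2.55 times Cd34, and Cd28 1.93 and 2.84 times Cd86. Cd34 and Cd93 were under 1 FPKM in the healthy library. These pairs were chosen after their values were seen, the quotients depend on the transcript lengths RSEM used, and no test was made.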
